A study of Mus musculus with 9 samples.

Results

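The intermediate filament genes Gfap, Vim, Nes and Synm and the transcription factor genes Sox2 and Sox9, which mark glial cytoskeleton and identity, were followed across glia from SOD1-G93A, SOD1-WT and nontransgenic mouse pups. All probes were taken whose gene symbol in the platform annotation was 1 of these 6 genes. There were 10 such probes among the 24613 on the array, and 9 of them, covering all 6 genes, were detected well enough to be tested. In SOD1-WT glia Gfap, Synm, Sox2 and Sox9 were higher than in nontransgenic glia, each by at least 1 probe, at 1.49-fold to 1.97-fold. In SOD1-G93A glia Gfap was 1.69-fold higher than in nontransgenic glia and Synm did not rise. Sox2 passed there by 1 of 2 probes, a call that was lost in 7 of 18 alternatives. Between the transgenic lines Synm was the only member past the test, and its brightest probe was 2.36-fold lower in SOD1-G93A glia. Sox9 and 1 Sox2 probe did not overlap between the lines but missed the threshold in that fit. The lines did not overlap for 30.3% of all probes tested. Vim and Nes did not pass the test in any comparison.

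The study used 9 Illumina mouse arrays, with 3 biological replicates for each kind of glia. SOD1-G93A glia carried human superoxide dismutase 1 with the G93A mutation, which causes amyotrophic lateral sclerosis, SOD1-WT glia carried the normal human gene, and nontransgenic glia carried no transgene. The labels give the lines as B6SJL-Tg(SOD1*G93A)2Gur/J, B6SJL-Tg(SOD1)2Gur/J and, for nontransgenic pups, B6SJL 2Gur/J. All share a mixed B6SJL background, and the cells came from pups of postnatal day 1 to 3, from tissue that had been freed of meninges, and were grown to confluence in horse serum. Each transgenic group is a single mouse line. In these lines the transgene is driven by human SOD1 sequence and is not restricted to glia. Neither the brain or cord region, the sex of the pups nor a sharing of litters between replicates is given in the sources used here.

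Intermediate filaments are rope-like polymers that give cells mechanical strength. Astrocytes build them from glial fibrillary acidic protein (Gfap) and vimentin (Vim), and immature astrocytes and neural progenitors add nestin (Nes). Nestin and synemin (Synm) are long proteins that do not form filaments alone and join those of vimentin or Gfap. Astrocytes that react to injury or disease raise Gfap, and often vimentin, nestin and synemin. Sox2 and Sox9 are DNA-binding factors with a high mobility group domain. Sox2 maintains neural progenitors and stays on in astrocytes, and Sox9 drives the start of gliogenesis and marks most adult astrocytes.

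The upstream sequences of 3 filament genes are printed because their probes differed in pattern: Gfap was higher in both transgenic lines, Synm in SOD1-WT glia, and Vim passed the test in neither. Each is the 250 bases before the RefSeq gene start in assembly GRCm38.p6, 5′ to 3′ on the strand of the gene, and capitals mark any match to a searched motif.
Gfap, chr11:102897201-102897450, minus strand: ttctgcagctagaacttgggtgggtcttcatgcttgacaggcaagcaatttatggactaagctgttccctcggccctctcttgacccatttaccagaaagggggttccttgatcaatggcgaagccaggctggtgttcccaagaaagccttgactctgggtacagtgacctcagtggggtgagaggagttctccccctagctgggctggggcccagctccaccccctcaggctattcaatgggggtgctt
Synm, chr7:67759743-67759992, minus strand: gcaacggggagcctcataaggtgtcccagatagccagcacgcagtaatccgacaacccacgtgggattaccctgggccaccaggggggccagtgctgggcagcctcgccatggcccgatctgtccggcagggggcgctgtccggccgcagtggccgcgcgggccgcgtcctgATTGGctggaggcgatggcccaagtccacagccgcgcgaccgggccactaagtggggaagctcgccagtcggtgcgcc
Vim, chr2:13574061-13574310, plus strand: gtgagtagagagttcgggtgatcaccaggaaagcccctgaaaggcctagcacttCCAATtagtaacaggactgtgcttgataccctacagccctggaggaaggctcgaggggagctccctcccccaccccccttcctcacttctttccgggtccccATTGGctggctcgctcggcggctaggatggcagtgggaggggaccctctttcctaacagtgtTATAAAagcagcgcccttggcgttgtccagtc
The search covered both strands for the TATA box (TATAAA), the CCAAT box (CCAAT), the GC box (GGGCGG), the STAT motif (TTCNNNGAA), the AP-1 motif (TGANTCA) and the Sox motif (ACAATG), none of which overlapped in the 3 windows. The Gfap window held none of them. The Synm window held 1 CCAAT on the opposite strand, and the Vim window held 2 CCAAT matches, 1 on each strand, and a TATAAA that ended 27 bases before the start. Of 32851 windows of the same length, 33.8% held CCAAT, 12.4% TATAAA, 32.7% GGGCGG, 7.02% the STAT motif, 6.75% the AP-1 motif and 10.7% the Sox motif. Letters absent from a window say nothing of the factor itself. Windows were at hand for 5 of the 6 genes, all but Sox9. Those of Nes and Sox2 each held 2 GGGCGG matches, and that of Sox2 also 1 CCAAT.

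The arrays detected 53.3% to 55.3% of their probes, at mean bead counts of 34.8 to 35.7 per probe. SOD1-WT replicate 3 stood apart: its mean raw signal was 279.6 units against 211 to 236 units on the other arrays, and the median over probes of the bead standard error was 6.84% of the signal against 5.08% to 5.23%. Changes of the members in comparisons with SOD1-WT glia are given with and without it. Of the calls named below for other genes, those of Stat3 between the lines and of Id1 in SOD1-WT glia were lost without it. Mouse Sod1 had mean log2 intensities of 11.11 in SOD1-G93A, 11.27 in SOD1-WT and 10.94 in nontransgenic glia, which does not check the human transgenes. Of 3 Y-linked genes with a probe, Kdm5d was detected on 3 of 3 and Eif2s3y on 2 of 3 SOD1-WT arrays. Both were detected on 0 of 3 SOD1-G93A and 0 of 3 nontransgenic arrays, while Uty was detected on none of the 9. Ddx3y and Xist were looked up as well and had no probe by symbol. Sex of the pups and genotype cannot be told apart in comparisons with SOD1-WT glia. In bulk RNA, fewer cells of a type and less RNA per cell cannot be told apart either.

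The labelled cell type was checked against 13 astrocyte markers with a probe, and all 13 were kept, among them Aqp4, Slc1a3, Aldoc and Gja1. Slc1a2 of that list was detected on only 5 of 9 arrays. Its mean log2 intensities were 4.44 in SOD1-G93A, 4.59 in SOD1-WT and 4.81 in nontransgenic glia. The summed linear intensity of the list was 21592 to 23549 in SOD1-G93A, 23680 to 25638 in SOD1-WT and 19861 to 21333 in nontransgenic glia, so the sum was lowest in nontransgenic glia with no overlap. The sum follows its brightest genes and not the list as a whole, whose median log2 change against nontransgenic glia was 0.03 for SOD1-G93A glia and 0.04 for SOD1-WT glia. By single genes 1 was higher and 3 lower (Gjb6, Slc1a2 and S100b) in SOD1-G93A against nontransgenic glia. In SOD1-WT against nontransgenic glia 5 were higher and 3 lower (Gjb6, Glul and Acsbg1). Of all kept probes, 10.6% passed the test in SOD1-G93A and 25.3% in SOD1-WT against nontransgenic glia. Markers of other cell types were detected as well. The 12 kept of 13 fibroblast and meninges markers summed to 17809 to 18944 in SOD1-G93A, 5925 to 7618 in SOD1-WT and 20029 to 22109 in nontransgenic glia, and Foxc1 of that list was detected on no array. By single genes, 12 of the 12 were lower in SOD1-WT against nontransgenic glia, and 2 were higher and 5 lower in SOD1-G93A against nontransgenic glia. The 11 kept of 13 microglia and macrophage markers summed to 20749 to 21970 in SOD1-G93A, 21356 to 22344 in SOD1-WT and 19630 to 22664 in nontransgenic glia. Of 10 neuronal markers 5 were kept, with a sum of 796 to 827 in SOD1-G93A, 800 to 903 in SOD1-WT and 864 to 1097 in nontransgenic glia. Stmn2 was detected on 9 arrays, at mean log2 intensities of 9.13, 9.24 and 9.38 in that order of groups. It made up 69.6%, 72.7% and 67.9% of the sum in the same order. Syt1, Dcx, Nefl and Slc17a7 were detected on no array. Endothelial markers, with 5 of 9 kept, summed to 365 to 395 in SOD1-G93A, 211 to 229 in SOD1-WT and 598 to 663 in nontransgenic glia. Kdr, Tek, Cldn5 and Tie1 of that list were detected on no array, Pecam1 on 3 and Esam on 4 of 9. Cdh5 made up 54.6% of the sum in SOD1-G93A and 65% in nontransgenic glia. Flt1 went the other way and was 0.50 higher in SOD1-WT than in nontransgenic glia (limma adjusted p = 0.00185). Whether endothelial cells were present was not tested. Vimentin and nestin are not restricted to astrocytes, and fibroblasts make vimentin too.

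**Figure D1:**
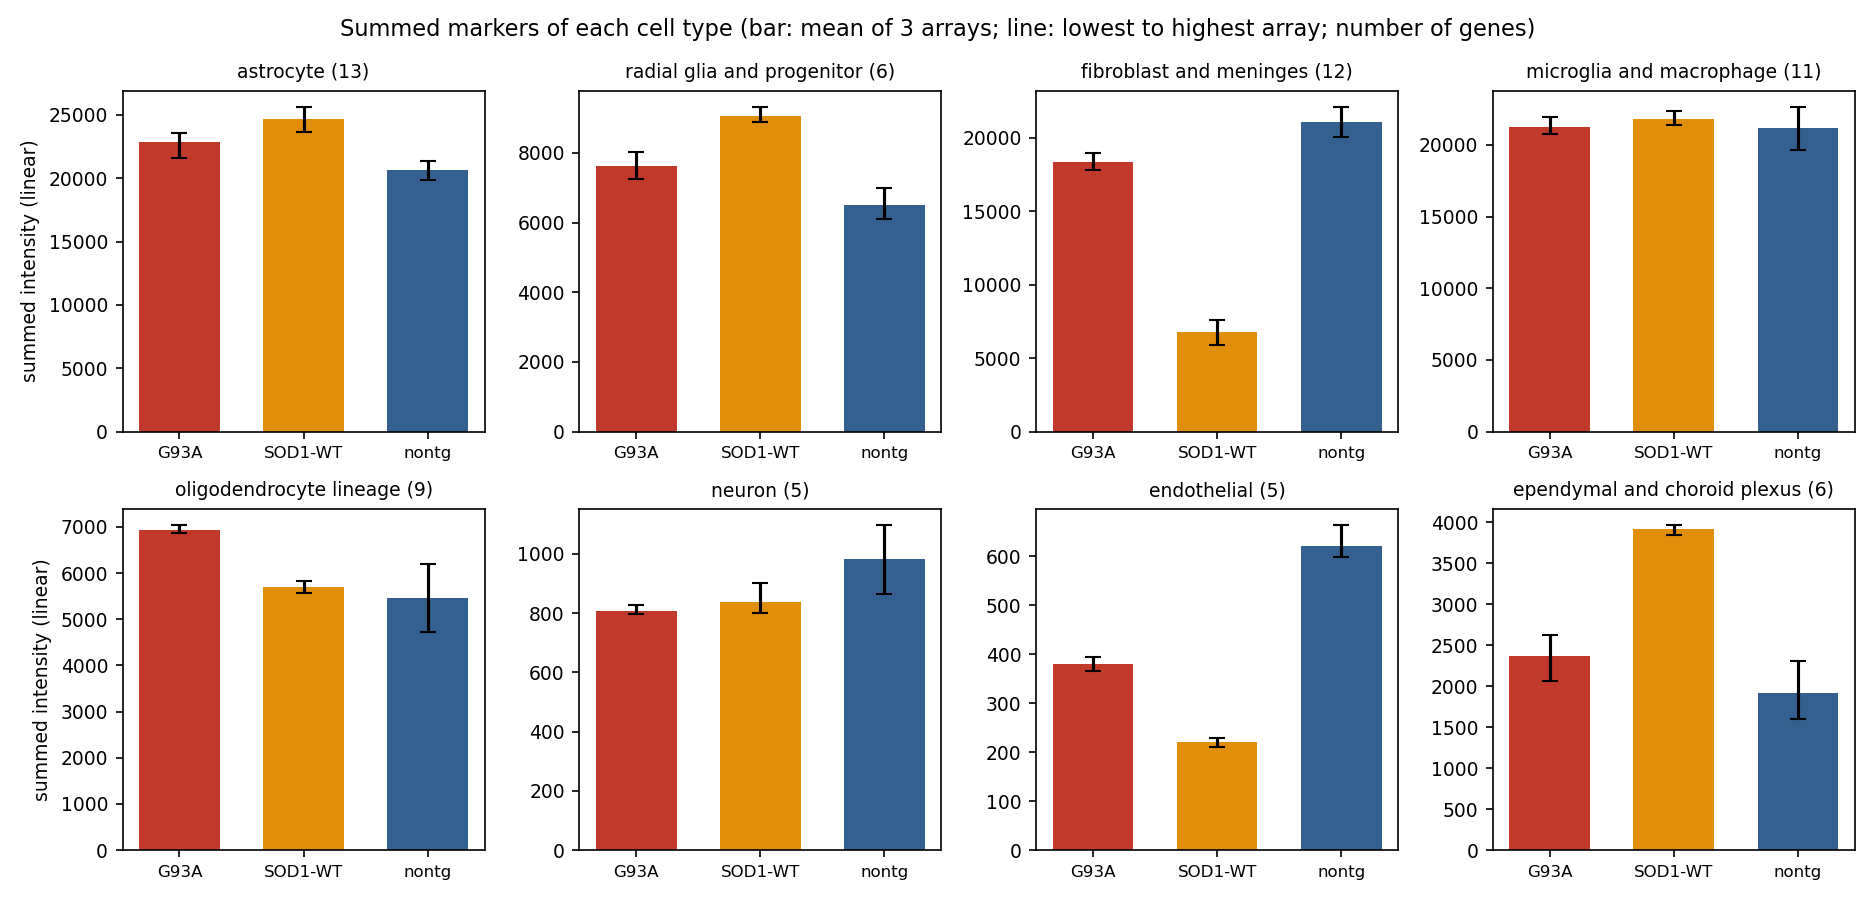
Summed normalised linear intensity (vertical axis) of the kept markers of 8 cell types in SOD1-G93A (G93A), SOD1-WT and nontransgenic (nontg) glia, with bars for the mean of 3 arrays, lines from the lowest to the highest array, and the number of genes in brackets. Fibroblast and meninges markers were lowest in SOD1-WT glia (5925 to 7618), and the sum of the astrocyte markers, though not each of them, was lowest in nontransgenic glia (19861 to 21333).

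Values of the members are normalised log2 intensities, so that 1 unit is a doubling. A probe passed the test at an adjusted p below 0.05 in limma, adjusted by Benjamini-Hochberg over all 13972 kept probes. Levels are compared between arrays for the same probe and not between probes.

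**Figure D2:**
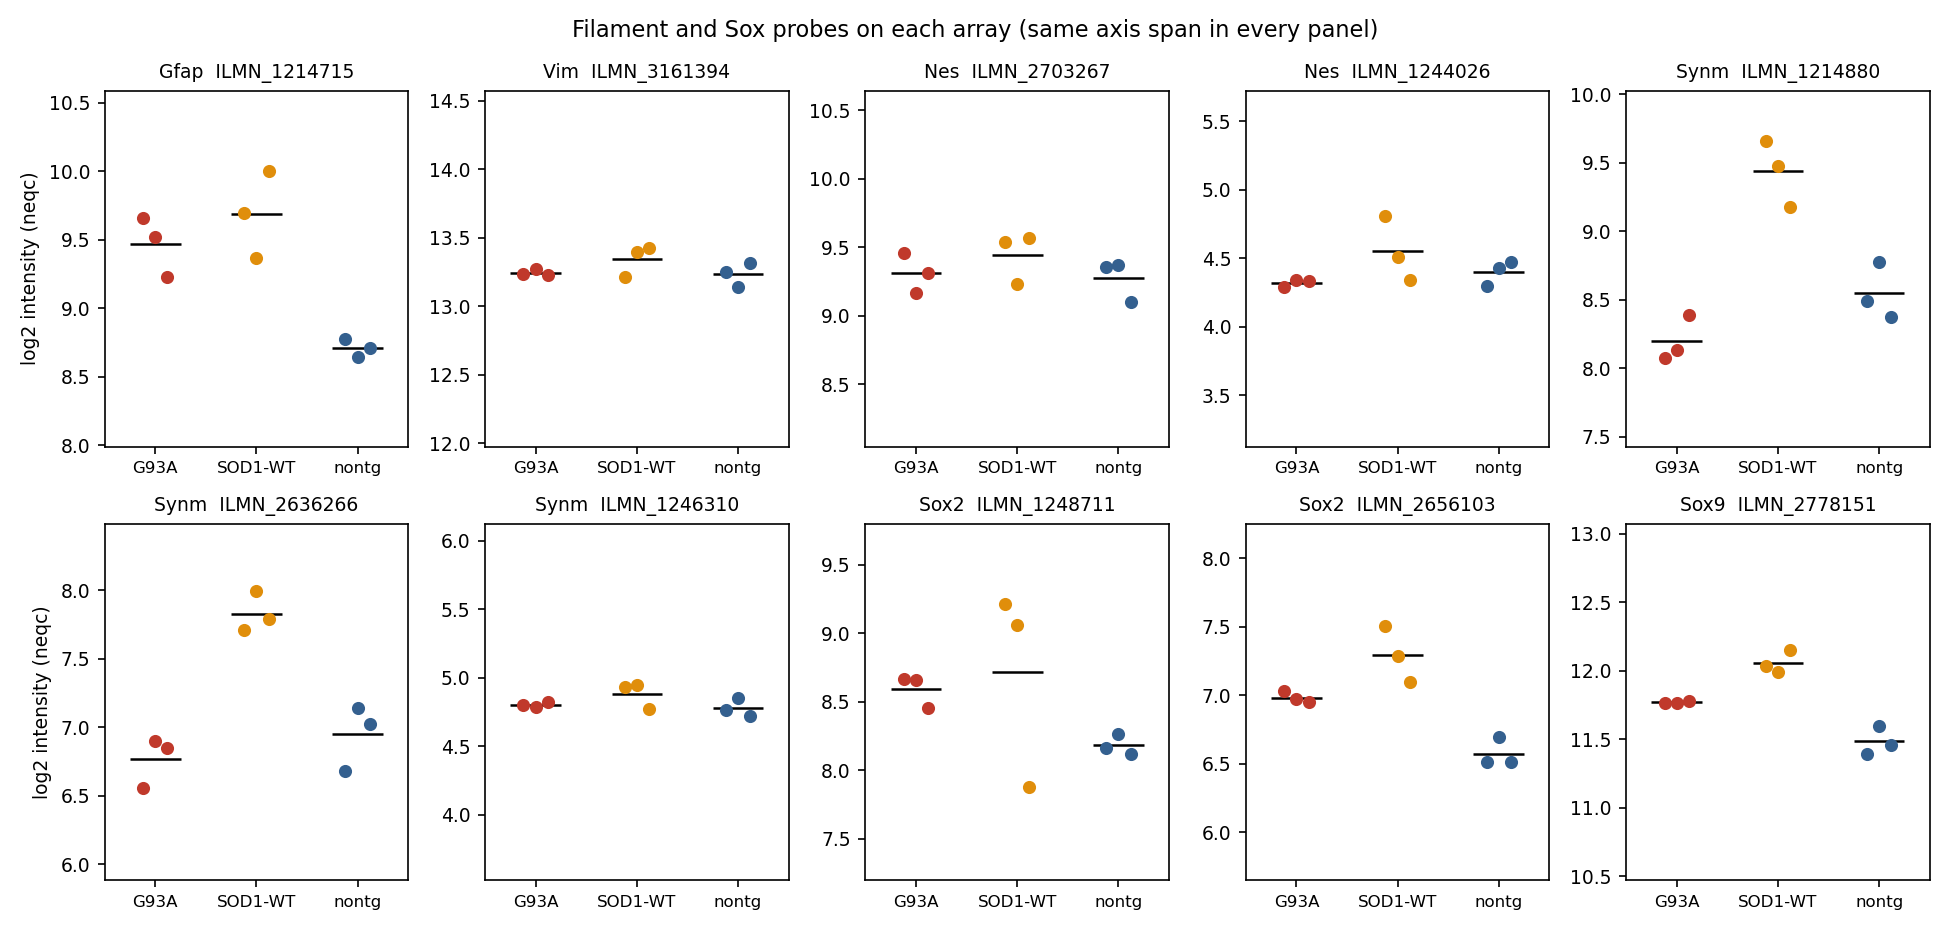
Normalised log2 intensity (vertical axis) of the 10 probes on each array, with 3 points per group for SOD1-G93A (G93A), SOD1-WT and nontransgenic (nontg) glia, and a line at each mean. Every panel spans the same log2 range, and the Gfap points of both transgenic groups (9.23 to 10.01) lie above those of nontransgenic glia (8.65 to 8.78).

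Gfap, the filament protein that defines astrocytes, had 1 probe, detected on all 9 arrays. It read 9.66, 9.52 and 9.23 on the SOD1-G93A arrays, 9.70, 9.37 and 10.01 on the SOD1-WT arrays and 8.78, 8.65 and 8.71 on the nontransgenic arrays. Every transgenic array lay above every nontransgenic array, and the 2 transgenic groups overlapped. Means were 9.47 ± 0.22 in SOD1-G93A, 9.69 ± 0.32 in SOD1-WT and 8.71 ± 0.07 in nontransgenic glia (SD, n = 3 each). Against nontransgenic glia, Gfap rose by 0.76 ± 0.15 (SE) in SOD1-G93A glia (limma adjusted p = 0.00441) and by 0.98 ± 0.15 in SOD1-WT glia (limma adjusted p = 0.00023). The first is a 1.69-fold and the second a 1.97-fold difference. Between the lines, Gfap in SOD1-G93A glia differed from SOD1-WT glia by -0.22, with a 95% interval of -0.54 to 0.10 (limma adjusted p = 0.401). SOD1-WT replicate 3 gave the highest value, and without it the change in SOD1-WT glia was 0.82 (adjusted p = 0.000534) and that between the lines -0.06 (adjusted p = 0.837). The summed fibroblast and meninges markers were 17809 to 18944 in SOD1-G93A, 5925 to 7618 in SOD1-WT and 20029 to 22109 in nontransgenic glia. The sum was lower in both transgenic lines with no overlap, but its single genes did not all follow it in SOD1-G93A glia. There 2 were higher, 5 lower and 5 not past the test, at a median log2 change of -0.07. All 12 were lower in SOD1-WT glia, at a median of -1.75. The part of these markers in the Gfap values was not tested.

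Vim, the filament protein of astrocytes, fibroblasts and many cultured cells, had 1 very bright probe. It read 13.23, 13.27 and 13.23 on the SOD1-G93A arrays, 13.21, 13.40 and 13.42 on the SOD1-WT arrays and 13.25, 13.14 and 13.31 on the nontransgenic arrays. All 3 groups overlapped. Against nontransgenic glia the change was 0.01 in SOD1-G93A glia (95% interval -0.20 to 0.22, limma adjusted p = 0.968) and 0.11 in SOD1-WT glia (-0.10 to 0.32, limma adjusted p = 0.455). Between SOD1-G93A and SOD1-WT glia it was -0.10 (-0.31 to 0.11, limma adjusted p = 0.581). The Vim changes without SOD1-WT replicate 3 in SOD1-WT glia and between the lines were 0.07 and -0.06 (adjusted p = 0.674 and 0.785). Both intervals against nontransgenic glia end below the Gfap change. The probe ranked 11 to 40 from the top in raw signal on the 9 arrays, and whether such bright probes still respond in full was not tested.

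Because Gfap and Vim were measured on the same arrays, their log2 difference was taken within each array. Gfap minus Vim was -3.58, -3.75 and -4.00 on the SOD1-G93A arrays, -3.52, -4.03 and -3.42 on the SOD1-WT arrays and -4.47, -4.49 and -4.60 on the nontransgenic arrays. All 6 transgenic arrays were above the 3 nontransgenic arrays. The difference rose by 0.74 in SOD1-G93A and by 0.86 in SOD1-WT glia against nontransgenic glia, each at an exact two-sided permutation p of 0.1, which is the smallest that 3 against 3 arrays can give. Between SOD1-G93A and SOD1-WT glia it differed by -0.12 (exact permutation p = 0.6). Without SOD1-WT replicate 3 it rose by 0.75 in SOD1-WT glia.

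Nes, which encodes the filament protein of neural progenitors, had 2 probes, of which 1 was kept. The kept probe read 9.46, 9.17 and 9.31 on the SOD1-G93A arrays, 9.54, 9.23 and 9.57 on the SOD1-WT arrays and 9.36, 9.37 and 9.10 on the nontransgenic arrays. The 3 groups overlapped on every side. Against nontransgenic glia the change was 0.04 in SOD1-G93A glia (95% interval -0.23 to 0.30, limma adjusted p = 0.916) and 0.17 in SOD1-WT glia (-0.09 to 0.44, limma adjusted p = 0.351). Between SOD1-G93A and SOD1-WT glia it was -0.13 (-0.40 to 0.13, limma adjusted p = 0.551). For Nes the changes without SOD1-WT replicate 3 in SOD1-WT glia and between the lines were 0.11 and -0.07 (adjusted p = 0.598 and 0.79). The other Nes probe was detected on 1 of 9 arrays, SOD1-WT replicate 1, and was not tested.

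Synm, the synemin gene, had 3 kept probes, and its pattern differed from that of Gfap. The brightest probe (ILMN_1214880) read 8.07, 8.13 and 8.39 on the SOD1-G93A arrays, 9.66, 9.48 and 9.18 on the SOD1-WT arrays and 8.49, 8.78 and 8.37 on the nontransgenic arrays. The SOD1-WT arrays stood above all 6 others, and the SOD1-G93A and nontransgenic arrays overlapped. Means were 8.20 ± 0.17 in SOD1-G93A, 9.44 ± 0.24 in SOD1-WT and 8.55 ± 0.21 in nontransgenic glia (SD, n = 3 each). A second probe of the same transcript record (ILMN_2636266) read 6.56, 6.90 and 6.85 on the SOD1-G93A arrays, 7.71, 7.99 and 7.79 on the SOD1-WT arrays and 6.68, 7.14 and 7.03 on the nontransgenic arrays, with the same separation.

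In SOD1-WT against nontransgenic glia Synm rose by 0.89 ± 0.14 (SE) by the brightest probe (limma adjusted p = 0.000313) and by 0.88 ± 0.14 by the second (limma adjusted p = 0.00024), 1.86-fold and 1.84-fold. In SOD1-G93A against SOD1-WT glia it fell by 1.24 ± 0.14 (limma adjusted p = 2.71e-05) and by 1.06 ± 0.14 (limma adjusted p = 7.83e-05). With SOD1-WT replicate 3 left out, these probes gave 1.02 and 0.90 in SOD1-WT glia and -1.37 and -1.08 between the lines, all past the test. In SOD1-G93A against nontransgenic glia the values were -0.35 ± 0.14 (limma adjusted p = 0.158) and -0.18 ± 0.14 (limma adjusted p = 0.511), neither past the test. The first of these passed with array weights, at -0.41 (adjusted p = 0.0352). The other probe (ILMN_1246310), annotated to another Synm transcript, was dim at 4.72 to 4.94 over the 9 arrays. It gave 0.03, 0.11 and -0.08 in the 3 comparisons (SOD1-G93A and then SOD1-WT glia against nontransgenic glia, then the transgenic lines against each other), with limma adjusted p of 0.92, 0.46 and 0.658, and without SOD1-WT replicate 3 it gave 0.16 in SOD1-WT glia and -0.14 between the lines, neither past the test. The difference between lines coincided with that of the fibroblast and meninges markers, whose sum was 17809 to 18944 in SOD1-G93A and 5925 to 7618 in SOD1-WT glia, and their part in the Synm values was not tested. Nontransgenic glia, with a sum of 20029 to 22109, had Synm values that overlapped those of SOD1-G93A glia.

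**Figure D3:**
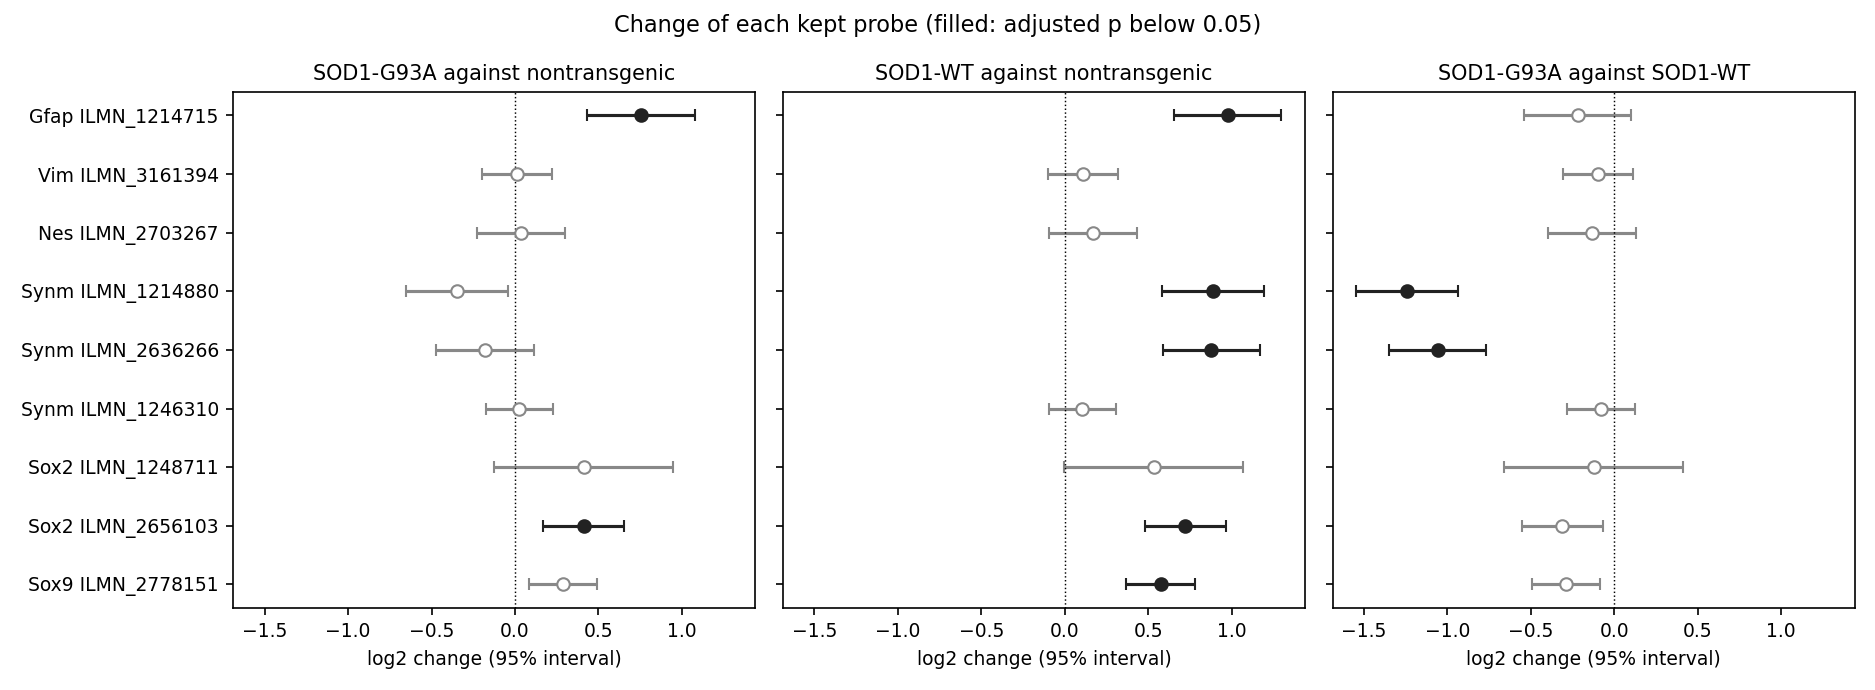
Log2 change with its 95% interval (horizontal axis) of the 9 kept probes in 3 comparisons, where filled points passed an adjusted p of 0.05. The brighter Synm probes lie to the right for SOD1-WT against nontransgenic glia (0.89 and 0.88) and to the left for SOD1-G93A against SOD1-WT glia (-1.24 and -1.06), while Vim stays near 0.

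Sox9, the gliogenic factor, had 1 probe, detected on all 9 arrays. It read 11.77, 11.76 and 11.78 on the SOD1-G93A arrays, 12.03, 11.99 and 12.15 on the SOD1-WT arrays and 11.39, 11.60 and 11.46 on the nontransgenic arrays. The 3 groups did not overlap, with SOD1-WT on top, SOD1-G93A between and nontransgenic below. Sox9 rose in SOD1-WT against nontransgenic glia by 0.57 ± 0.10 (SE), 1.49-fold (limma adjusted p = 0.000431). In SOD1-G93A glia it was 0.29 ± 0.10 above nontransgenic glia (limma adjusted p = 0.0757) and -0.29 ± 0.10 from SOD1-WT glia (limma adjusted p = 0.0578), both just short of the threshold. The value against nontransgenic glia passed in 5 of 18 alternatives, among them the fit without SOD1-WT replicate 3 (adjusted p = 0.0494), with adjusted p from 0.0205 to 0.237. The value against SOD1-WT glia passed in 5 of 18 too, with adjusted p from 0.0139 to 0.142. Sox9 without SOD1-WT replicate 3 gave 0.53 in SOD1-WT glia (adjusted p = 0.00136) and -0.24 between the lines (adjusted p = 0.136).

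Sox2, the progenitor factor, had 2 kept probes that disagreed on a single array. The brighter one (ILMN_1248711) read 8.67, 8.66 and 8.45 on the SOD1-G93A arrays, 9.21, 9.06 and 7.88 on the SOD1-WT arrays and 8.16, 8.26 and 8.12 on the nontransgenic arrays. SOD1-WT replicate 3 was thus the lowest of all 9 arrays, while its group mates were the highest. The other probe (ILMN_2656103) read 7.03, 6.97 and 6.95 on the SOD1-G93A arrays, 7.51, 7.28 and 7.09 on the SOD1-WT arrays and 6.51, 6.69 and 6.51 on the nontransgenic arrays. On it the groups did not overlap, in the same order as for Sox9. In raw units SOD1-WT replicate 3 read 288 by the brighter probe over 36 beads, against 582 and 522 on the other SOD1-WT arrays, and its bead standard error was 10.5% of the signal, against 6.21% and 5.28%.

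**Figure D4:**
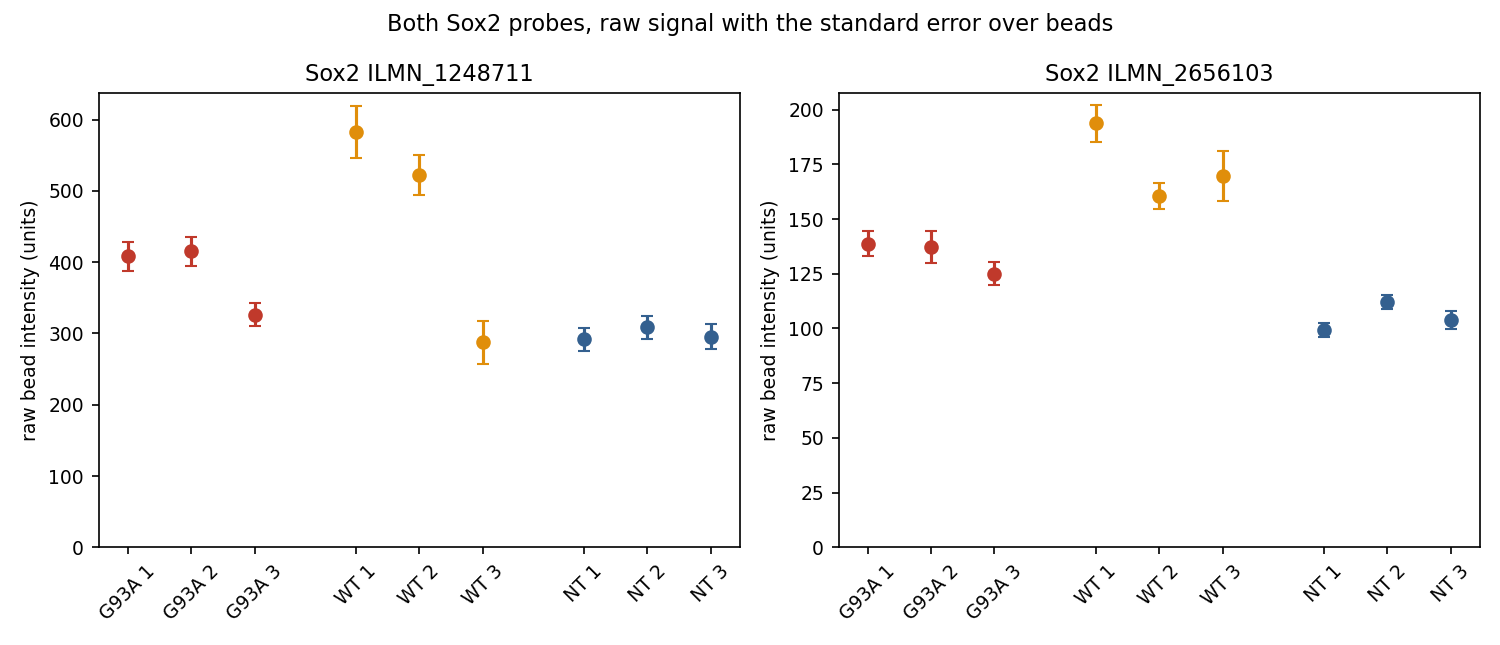
Raw bead intensity (vertical axis) of both Sox2 probes on the SOD1-G93A (G93A), SOD1-WT (WT) and nontransgenic (NT) arrays, with the standard error over beads. By the brighter probe WT 3 lies at 288 units, below WT 1 and WT 2 at 582 and 522. By the other probe it lies among its group at 169.6 raw units, on an array whose mean raw signal was the highest, at 279.6. After normalisation WT 3 was the lowest of its group by that probe too, at 7.09 against 7.51 and 7.28.

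By the probe whose groups did not overlap, Sox2 rose by 0.72 ± 0.11 (SE) in SOD1-WT against nontransgenic glia, 1.65-fold (limma adjusted p = 0.000268), and by 0.41 ± 0.11 in SOD1-G93A against nontransgenic glia, 1.33-fold (limma adjusted p = 0.032). That call in SOD1-G93A glia was lost on leaving out its replicate 1 (0.39, adjusted p = 0.109), 2 (0.42, 0.0844) or 3 (0.43, 0.0757), and nontransgenic replicate 1 (0.38, 0.109) or 3 (0.38, 0.1). It was also lost with no filter on dim probes (adjusted p = 0.0615) and with the authors' deposited values (0.0503), over a range of 0.0116 to 0.109. In SOD1-G93A against SOD1-WT glia this probe gave -0.31 (limma adjusted p = 0.0859). The brighter probe gave 0.41, 0.53 and -0.12 in the 3 comparisons, in the order used for Synm (limma adjusted p = 0.383, 0.14 and 0.817). Without SOD1-WT replicate 3 it gave 0.41, 0.95 and -0.54 (adjusted p = 0.0119, 1.73e-05 and 0.00359), and the other probe gave 0.82 in SOD1-WT against nontransgenic glia (adjusted p = 6.52e-05) and -0.41 in SOD1-G93A against SOD1-WT glia (adjusted p = 0.0197).

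Over the 9 kept probes, 5 were higher and 0 lower in SOD1-WT against nontransgenic glia, where 25.3% of all kept probes passed (13.5% higher, 11.8% lower). In SOD1-G93A against nontransgenic glia 2 were higher and 0 lower, where 10.6% of all kept probes passed (5.11% higher, 5.53% lower). In SOD1-G93A against SOD1-WT glia 0 were higher and 2, both of Synm, were lower, where 15% passed (6.91% higher, 8.13% lower). Without SOD1-WT replicate 3 the last 2 counts became 4 higher and 4 lower, and without any 1 SOD1-G93A array or nontransgenic replicate 1 or 3 the count in SOD1-G93A glia became 1. The median log2 change of the 9 probes was 0.57, 0.04 and -0.22 in these comparisons, beside 0.00, 0.01 and 0.01 over all kept probes. The groups did not overlap for 5, 4 and 4 of the 9 probes in that order of comparisons, where this held for 37.7%, 29.4% and 30.3% of all kept probes. The comparisons share arrays, so their counts are not independent. By group mean, SOD1-WT was highest for all 9 probes, and nontransgenic was lowest for all but the 2 brighter Synm probes. The 9 probes cover 6 genes, and the share of all kept probes with such an order was not counted. Some of these orders lie within the spread. Vim had means of 13.25 in SOD1-G93A and 13.23 in nontransgenic glia, at a within-group SD of 0.08. The dim Synm probe had 4.80 and 4.78, at 0.07.

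Of 14 other intermediate filament genes with a probe, 2 were kept, the lamin genes Lmna and Lmnb2, which form the nuclear lamina. The 12 not kept include desmin, neurofilament and keratin genes, and 9 of the 12 were detected on no array. Neither lamin gene passed in any comparison by its brightest probe. Lmna gave 0.05 and Lmnb2 0.16 in SOD1-G93A against nontransgenic glia (limma adjusted p = 0.877 and 0.4).

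Among 8 kept genes for proteins that bind or chaperone intermediate filaments, 3 were higher and 1 lower in SOD1-WT against nontransgenic glia. In SOD1-G93A against nontransgenic glia 2 were higher and 0 lower. Of all kept probes, 25.3% passed in SOD1-WT and 10.6% in SOD1-G93A against nontransgenic glia. Dtna and Dmd, for dystrobrevin alpha and dystrophin of the complex that links the cytoskeleton to the cell membrane and to synemin, rose in both transgenic lines. Dtna rose by 0.74 ± 0.10 (SE) in SOD1-G93A and by 0.67 ± 0.10 in SOD1-WT glia (limma adjusted p = 0.000202 and 0.000157). Its 3 other probes gave 0.35 to 0.61 in SOD1-G93A and 0.30 to 0.57 in SOD1-WT glia. Of these, ILMN_2625949 and ILMN_1222187 did not pass in SOD1-G93A glia (limma adjusted p = 0.128 and 0.0972). ILMN_1222187 did not pass in SOD1-WT glia either (limma adjusted p = 0.324). Dmd rose by 0.38 ± 0.11 and 0.56 ± 0.11 (limma adjusted p = 0.0482 and 0.00219), and its call in SOD1-G93A glia ended when any 1 of 7 arrays was left out, SOD1-WT replicate 3 and nontransgenic replicate 3 being the exceptions (lowest 0.26, adjusted p = 0.202). Hspb1, a small heat shock protein that binds filaments, fell by 0.62 ± 0.14 in SOD1-WT against nontransgenic glia (limma adjusted p = 0.00398). Dst, for a linker of filaments to other cytoskeletal fibres, rose by 0.56 in SOD1-WT against nontransgenic glia (limma adjusted p = 0.00221). Its 3 other probes gave 1.02, 0.28 and 0.33 there, of which 1.02 passed (limma adjusted p = 3.83e-05). In SOD1-G93A against nontransgenic glia the brightest Dst probe gave 0.18 (limma adjusted p = 0.405). Between the lines, SOD1-G93A against SOD1-WT, Dst gave -0.38 (limma adjusted p = 0.0386). The other probes gave -0.81 (limma adjusted p = 0.00056), -0.02 and -0.31, the last 2 not past the test. The call at -0.38 was lost without any 1 SOD1-G93A array, SOD1-WT replicate 1 or nontransgenic replicate 2 or 3 (-0.25 to -0.42, adjusted p up to 0.144).

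The other Sox genes moved in more than 1 pattern. Of 8 kept genes, 4 were higher and 0 lower in each transgenic line against nontransgenic glia. In SOD1-G93A against SOD1-WT glia 1 was higher and 3 lower. Of all kept probes, 10.6% passed in SOD1-G93A and 25.3% in SOD1-WT against nontransgenic glia, and 15% between the lines. Sox21, a relative that counters Sox2 at shared targets, had means of 9.88 ± 0.06 in SOD1-G93A, 10.56 ± 0.05 in SOD1-WT and 9.53 ± 0.17 in nontransgenic glia (SD, n = 3 each). It rose by 1.03 ± 0.10 (SE) in SOD1-WT glia (limma adjusted p = 4.34e-06), and by 0.77 by each of its 2 other probes. Sox13 rose by 0.76 ± 0.11 in SOD1-WT glia (limma adjusted p = 0.000101). Between the lines, SOD1-G93A against SOD1-WT, Sox21 gave -0.68 and Sox13 -0.49 (limma adjusted p = 0.00039 and 0.00523). The other Sox21 probes gave -0.40 (limma adjusted p = 0.0324) and -0.36 (limma adjusted p = 0.225) there. Sox8, a close relative of Sox9, rose by 0.66 ± 0.11 in SOD1-G93A and by 0.45 ± 0.11 in SOD1-WT glia (limma adjusted p = 0.00136 and 0.0081). Sox10, of the oligodendrocyte lineage, rose in SOD1-G93A glia by 0.61 ± 0.10 over nontransgenic glia and by 0.80 ± 0.10 over SOD1-WT glia (limma adjusted p = 0.000859 and 5.19e-05). The summed oligodendrocyte lineage list, which holds Sox10, was 6874 to 7034 in SOD1-G93A, 5574 to 5826 in SOD1-WT and 4713 to 6187 in nontransgenic glia. Olig1 made up 82.4% of that sum in SOD1-G93A, 83.8% in SOD1-WT and 71.5% in nontransgenic glia. Of its 9 genes, Sox10 and Olig1 (0.57) rose in SOD1-G93A against nontransgenic glia, while Mbp (-0.50) and Pdgfra (-0.58) fell. Pdgfra is on the fibroblast and meninges list too, and it gave -2.08 in SOD1-WT against nontransgenic glia.

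Of 16 kept regulators of astrocyte genes, 1 was higher and 1 lower in SOD1-G93A, and 4 were higher and 2 lower in SOD1-WT, against nontransgenic glia, where 10.6% and 25.3% of all kept probes passed. Stat3, the factor that carries cytokine signals to the Gfap gene, rose by 0.53 ± 0.10 (SE) in SOD1-G93A glia (limma adjusted p = 0.00322), and its other probe gave 0.23 (limma adjusted p = 0.158). In SOD1-WT glia it gave 0.18 (limma adjusted p = 0.224). Il6st, the receptor chain gp130 upstream of Stat3, rose by 1.04 ± 0.11 in SOD1-WT glia (limma adjusted p = 8.95e-06) and gave 0.24 in SOD1-G93A glia (limma adjusted p = 0.227). The difference between the lines was itself tested: Il6st in SOD1-G93A stood -0.79 from SOD1-WT glia (limma adjusted p = 0.000204), and Stat3 0.35 (limma adjusted p = 0.03), with 0.16 (limma adjusted p = 0.306) by its other probe. The Stat3 difference no longer passed when SOD1-WT replicate 3 (0.26, adjusted p = 0.0905) or SOD1-G93A replicate 1 (0.36, 0.0821), 2 (0.37, 0.0627) or 3 (0.33, 0.102) was left out. Without SOD1-WT replicate 3 the list's count between the lines changed to 0 higher and 2 lower in SOD1-G93A, against 2 higher and 1 lower with it. With all arrays, 15% of all kept probes passed between the lines. Zbtb20, a factor of astrocyte formation, rose by 0.70 ± 0.15 in SOD1-WT glia (limma adjusted p = 0.00259). Id1, an inhibitor of basic helix-loop-helix factors, fell by 0.43 ± 0.10 in SOD1-G93A and by 0.29 ± 0.10 in SOD1-WT glia (limma adjusted p = 0.0096 and 0.0376). The Id1 call in SOD1-G93A glia ended without nontransgenic replicate 2 (-0.37, adjusted p = 0.0589), and that in SOD1-WT glia ended without any 1 array but nontransgenic replicate 3 (-0.23 to -0.32, adjusted p up to 0.158).

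Other markers of astrocytes did not all move with Gfap. Without SOD1-WT replicate 3 the count of higher markers in SOD1-G93A glia, 1 of 13, was 2. With all arrays, 5.11% of all kept probes passed as higher in SOD1-G93A against nontransgenic glia. Aqp4, the water channel of astrocyte endfeet, rose by 0.73 ± 0.10 (SE) in SOD1-G93A and by 0.59 ± 0.10 in SOD1-WT glia (limma adjusted p = 0.000356 and 0.000767). Slc1a3, a glutamate transporter, rose by 0.44 ± 0.10 in SOD1-WT glia (limma adjusted p = 0.0049). Gjb6, the gap junction protein connexin 30, fell by 1.45 ± 0.12 in SOD1-G93A and by 1.59 ± 0.12 in SOD1-WT glia (limma adjusted p = 2.88e-06 and 2.75e-07). Acsbg1, a lipid enzyme, fell by 0.55 ± 0.11 in SOD1-WT glia (limma adjusted p = 0.00198).

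Of other progenitor and radial glia markers, which with Sox2 and Nes describe immature cells, 6 were kept. Of these, 4 were higher in SOD1-WT and 1 in SOD1-G93A against nontransgenic glia, with 0 lower. Slc1a3, 1 of the 4, was counted among the astrocyte markers too. Fabp7 and Tnc passed in no comparison. Fabp7 was dim, with group means of 4.87 (nontransgenic), 4.88 (SOD1-WT) and 4.98 (SOD1-G93A). Hes5, Pax6 and Msi1 of that list were detected on no array. Of all kept probes, 25.3% passed in SOD1-WT and 10.6% in SOD1-G93A against nontransgenic glia. Prom1, a membrane protein of stem cells and ciliated cells, rose by 0.78 ± 0.12 (SE) in SOD1-WT against nontransgenic glia (limma adjusted p = 0.000224) and fell by 1.09 ± 0.12 in SOD1-G93A against SOD1-WT glia (limma adjusted p = 1.77e-05), the same order as Synm. Notch1 rose by 0.52 ± 0.09 in SOD1-G93A and by 0.55 ± 0.09 in SOD1-WT glia (limma adjusted p = 0.00148 and 0.000336). Id4 rose by 0.67 ± 0.13 in SOD1-WT against nontransgenic glia (limma adjusted p = 0.00156) and gave 0.11 in SOD1-G93A glia (limma adjusted p = 0.713). It was -0.56 ± 0.13 in SOD1-G93A against SOD1-WT glia (limma adjusted p = 0.00886). The 6 kept of 8 markers of ependyma and choroid plexus, with Kl detected on no array, summed to 2066 to 2629 in SOD1-G93A, 3847 to 3965 in SOD1-WT and 1595 to 2308 in nontransgenic glia. The members of that list did not move together. Against nontransgenic glia 4 were higher and 1 lower in each transgenic line, and Dynlrb2 made up 80.3% of the sum in SOD1-WT glia. Aqp1 had a mean of 7.83 in SOD1-G93A, 5.25 in SOD1-WT and 9.70 in nontransgenic glia, and Ttr 7.74, 4.90 and 4.81 in the same order. The SOD1-G93A arrays differed widely for Ttr, with an SD of 1.63, against 0.19 in SOD1-WT and 0.11 in nontransgenic glia. The part of these markers in the Synm, Sox2 and Sox9 values was not tested.

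Some genes had profiles over the 9 arrays close to those of the members, measured as the root mean square difference between log2 profiles centred on their means, among 9668 genes. Closest to Gfap were Acsl6 (0.14), Ctsc (0.16) and Arhgap15 (0.16), where Gfap itself varied by 0.46 about its mean. Closest to Synm were Frs3 (0.16), Dnah1 (0.16) and Lgi3 (0.17), against a variation of 0.55. Closest to Sox9 were Zfp607b (0.04), Trmt9b (0.05) and Dhx32 (0.05), against 0.24. The brighter Sox2 probe was nearest to Cetn2 (0.11), Tuba1a (0.13) and Pisd (0.17), which share its low value on SOD1-WT replicate 3. Vim and Nes varied little, by 0.09 and 0.15, and their nearest genes were Cntn6, Dhx38 and Ctdspl for Vim and Snap23, Olfr1000 and Arl3 for Nes.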

How the data were processed

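Total RNA from 9 confluent glial cultures was amplified with the Illumina TotalPrep kit and read on Illumina mouse bead arrays, and processed in BeadStudio, per the submitters' processing notes and the labels. Per the file headers, the deposited raw table holds for each probe a mean bead intensity, a bead count, the standard error of the bead signal and a detection p-value. From its values it was neither background-corrected nor scaled. The authors' second deposited table holds normalised intensity values that are a straight line of the raw ones, used as an alternative.

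Raw intensities went through neqc of the limma package (version 3.58.1, under R 4.3.3): background was estimated by way of detection p-values, 16 was added as an offset, and quantile normalisation and log2 followed. Probes with detection p below 0.01 on at least 3 arrays were kept (13972 of 24613). Symbols came from the platform annotation (20984 probes with 1 symbol, 1 with several, 3628 with none), and the check by gene identifier updated 0 of them. All 9 arrays entered 1 limma fit of 3 groups (6 residual and 7.52 prior degrees of freedom), with two-sided tests, Benjamini-Hochberg adjustment over kept probes and a threshold of 0.05. The fit was tested on simulated data. A gene stands for its list by its brightest kept probe. Members are named in full. From each other list up to 4 genes with the smallest p among calls were eligible, at most 2 per direction and comparison, and the 3 nearest profiles per member. The members, lists and tests were chosen with earlier results of these data known. Precision is limited by having 3 arrays per group.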

Additional observations from a re-analysis of the deposited data

How the results depend on the processing

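Of the 27 changes of the 9 kept probes in 3 comparisons, 9 passed the threshold, and 8 of these 9 passed in all 18 alternatives, the exception being Sox2 (ILMN_2656103) in SOD1-G93A against nontransgenic glia. No called change reversed its sign. The count of member probes past the threshold in SOD1-G93A against nontransgenic glia (2) was 1 with the authors' deposited values and 1 to 4 when single replicates were left out. In SOD1-G93A against SOD1-WT glia (2) it was 2 to 4 when single replicates were left out, the 4 being without SOD1-WT replicate 3. In SOD1-WT against nontransgenic glia (5) it stayed at 5 or 6. The count over all probes stayed within 1.5 times of 1487, 3539 and 2102, at 1041 to 2087, 2877 to 3792 and 1548 to 2285. Gfap minus Vim kept its sign in all 16 alternatives per comparison. Replicate numbers do not pair the samples by the labels, and same-numbered deviations correlated at -0.02 to 0.15, with 3 of 9 pairs over 0.1. With the replicate number as a block, 2, 5 and 2 member probes passed in SOD1-G93A and SOD1-WT glia against nontransgenic glia and between the transgenic lines, the same numbers as without it. List counts and marker sums without SOD1-WT replicate 3 were added after seeing the data. Without it the SOD1-WT sum of fibroblast and meninges markers was 6715 to 7618, that of astrocyte markers 23680 to 25638 and that of ependyma and choroid plexus markers 3935 to 3965. The cause of the changed counts was not tested.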
